A study of Mus musculus with 15 samples.

Results

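GL261 is a mouse glioma cell line, and the cells compared here are its Hoechst-CD133+ fraction, labelled WT, kept either in the hydrogel called L-gel@GSNP or with PBS. The comparison rests on 6 of the 15 libraries of the study, 3 of each group, and covers all 34259 genes of the deposited count table, of which 17497 had enough counts to test. Both groups were grown with a cytokine cocktail and sampled on Day 6, with new medium on days 2 and 4. Cells of the L-gel@GSNP group were first taken up for 20 min on ice by a freeze-dried hydrogel, which the labels call chiral, whereas no ice step is named for the PBS group. GSNP and NP are code names for what the gels carried. The effects of the gel, of its load and of the ice step on a difference from PBS cannot be told apart, and an L gel without GSNP was not analysed here. Values are also given for D-gel@NP and D-gel@GSNP, 2 further hydrogel groups of Hoechst-CD133+ cells with cytokines and the same ice step, and for untreated non-SP cells. The labels do not say whether the 3 libraries of a group came from separate cultures. The p-values set a difference against the spread between libraries within groups, estimated over all 15 libraries, and that spread may be technical.

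The total count was 38.5 to 42.7 M counts in the PBS libraries and 35.0, 43.7 and 98.1 M in the L-gel@GSNP libraries. Distances between libraries (Euclidean, on log2 CPM of the tested genes) were 97.7 to 111.2 between the 2 groups, 67.3 to 71.9 among PBS and 56.6 to 66.0 among L-gel@GSNP libraries. L-gel@GSNP lay 73.4 to 100.7 from D-gel@NP and 134.7 to 144.8 from D-gel@GSNP. The D-gel@GSNP libraries lay 67.6 to 73.9 from the untreated non-SP libraries and 65.1 to 69.0 from each other, which bears on every value of that group given below. All 15 libraries carry the same batch label. Prom1, which encodes CD133, had 0.156, 0.139 and 0.177 CPM in the PBS libraries and 0.0566, 0.0451 and 0.307 CPM in the L-gel@GSNP libraries, too little to test. Gfap, an astrocyte marker, was at 0.280 ± 0.0214 and 0.137 ± 0.0372 CPM, and Sox2, Aqp4, Olig1 and Sox10 have no entry. The 5 listed astrocyte markers with an entry summed to 90.12 to 101.2 CPM in the PBS and 97.34 to 111.2 CPM in the L-gel@GSNP libraries. The epithelial keratin gene Krt8 stood at 974 ± 43.8 and 910.3 ± 21.9 CPM (SD, n = 3, as for every mean ± SD below).

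Levels are given as CPM, counts scaled to library depth with TMM factors, and differences as the log2 ratio of L-gel@GSNP over PBS with 95% intervals. A gene was called higher or lower at an adjusted p under 0.05 in edgeR's quasi-likelihood test, fitted over all 15 libraries. By this test 3761 genes were higher (21.5% of those tested) and 4218 were lower (24.1%) in L-gel@GSNP, 7979 (45.6%) in all, and 9163 genes (52.4%) had groups that did not overlap. Every count of called list members below is to be read beside the 21.5% higher and 24.1% lower. A list near these shares differs little from all tested genes. Changes of at least 2-fold were fewer, with 1046 genes higher (5.98%) and 543 lower (3.1%). With upper-quartile scaling in place of TMM, 4560 genes were higher and 3421 lower, so that 57.1% of the called genes were higher against 47.1% with TMM. RNA of a whole culture was measured, so fewer cells of a kind and less RNA per cell cannot be told apart.

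**Figure D1:**
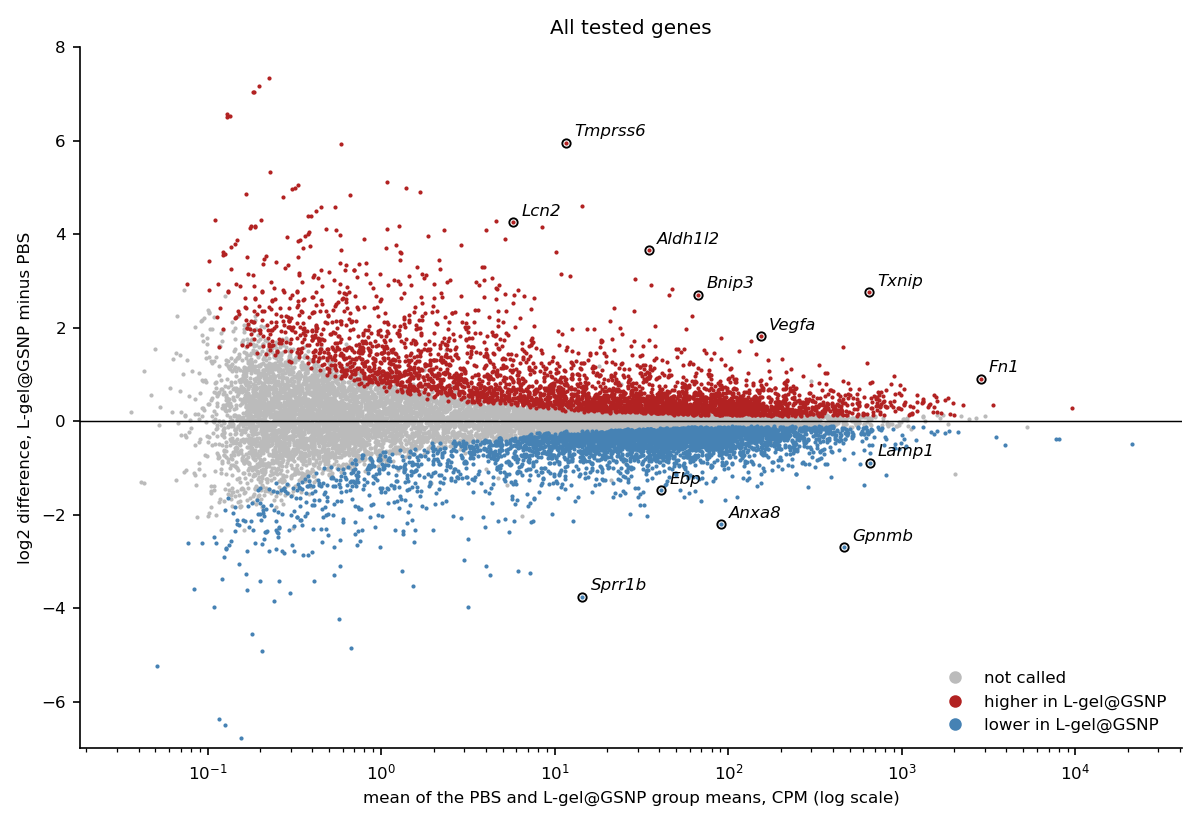
Each dot is 1 of the 17497 tested genes; the x axis is the mean of both groups' mean CPM (log scale) and the y axis the log2 difference, L-gel@GSNP minus PBS. Red genes were called higher, blue genes lower and grey genes not called; 1 gene lies outside the plotted range, and the circled genes are described in the text.

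Several of the programmes that respond to nutrients and oxygen are described below. Cholesterol and fatty acid synthesis genes are driven by SREBP factors, which the cell activates when sterols are scarce. ATF4 raises genes for amino acid synthesis when amino acids run short or proteins misfold, HIF factors raise glycolysis and angiogenesis genes when oxygen is low, and TFEB and its relatives drive lysosome genes. ChREBP, the product of Mlxipl, responds to glucose metabolites.

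The largest rises by the naming rule were led by Tmprss6, a membrane protease that restrains the iron hormone hepcidin. It stood at 0.156, 0.256 and 0.683 CPM in the PBS libraries and at 23.1, 21.1 and 23.9 CPM in the L-gel@GSNP libraries. The groups were far apart, with a log2 difference of 5.95 (5.43 to 6.48; adjusted p = 8.49e-14, edgeR's quasi-likelihood test). Lcn2, a secreted protein that binds bacterial siderophores and carries iron, rose from 0.572 ± 0.344 to 10.9 ± 1.16 CPM, and Alpl, tissue-nonspecific alkaline phosphatase, from 0.891 ± 0.467 to 15.9 ± 1.33 CPM. PBS replicate 3 was the highest PBS library for all 3 of these genes, and over the 1046 genes that rose at least 2-fold it was the highest in 538 (51.4%). Without that library the log2 difference was 6.75 for Tmprss6 and 4.84 for Lcn2.

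Genes of the cytoskeleton, of transport and of the matrix were also among the 15 largest rises. Map2, a microtubule-associated protein known from neurons, was at 0.519, 0.279 and 1.19 CPM with PBS and 9.26, 8.20 and 11.7 CPM in the gel. Prph, the intermediate filament peripherin, rose 8.86-fold to 19.5 ± 1.84 CPM. Neither gene came with the other neuronal markers: Snap25 had no counts in either group, Stmn2 had no entry, and the summed level of the 5 listed neuronal markers with an entry, 0.697 to 1.34 CPM with PBS and 8.29 to 12.01 CPM in the gel, came in the gel almost all from counts of Map2. Itga11, a collagen-binding integrin subunit, rose 16.9-fold; without PBS replicate 3 its log2 difference was 5.25 and that of Map2 4.62. Col3a1, a fibrillar collagen, rose 9.89-fold, Atp2a3, a calcium pump of the endoplasmic reticulum, 19.3-fold, and Ano1, a calcium-activated chloride channel, 8.35-fold. Steap4, a metalloreductase, went from 4.20, 5.25 and 9.44 CPM to 54.3, 53.1 and 48.4 CPM. Cdsn, a protein of cornified cell junctions, and Ighm, the immunoglobulin heavy chain gene, rose to 5.37 ± 0.872 and 6.98 ± 0.896 CPM; the B cell markers together stayed under 1 CPM in every PBS and L-gel@GSNP library.

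Among the 15 largest falls, several genes belong to the keratinising and stress-exposed epithelium. Sprr1b, a cornified envelope protein, stood at 28.6, 27.9 and 24.1 CPM with PBS and 2.18, 1.74 and 2.05 CPM in the gel, a log2 difference of -3.75 (-4.23 to -3.27). Tmprss11b, an epithelial serine protease, fell from 13.1 ± 1.93 to 1.31 ± 0.462 CPM, and Serpinb12, an intracellular serpin, from 5.37 ± 0.195 to 0.937 ± 0.185 CPM. Anxa8, an annexin of epithelia, went from 159.7, 157 and 129 CPM to 35.3, 32.0 and 30.1 CPM. Ifi207, a member of the interferon-inducible p200 family, fell 15.7-fold to 0.400 ± 0.140 CPM; it has close relatives, and reads shared with them may have been split.

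Other large falls were in signalling and metabolism. Gpnmb, a glycoprotein of lysosomes and melanosomes, was at 789, 848 and 786 CPM with PBS and 115, 129 and 131 CPM in the gel (6.47-fold lower; adjusted p = 7.64e-18, edgeR's quasi-likelihood test). Ppargc1a, the coactivator that drives mitochondrial biogenesis, fell from 7.72 ± 0.313 to 1.75 ± 0.113 CPM. Btc, the EGF receptor ligand betacellulin, fell from 12.2 ± 1.38 to 2.75 ± 0.422 CPM, Klb, the coreceptor of FGF21, from 5.26 ± 0.703 to 0.693 ± 0.189 CPM, and Plin4, a lipid droplet coat protein, from 6.59 ± 0.182 to 1.32 ± 0.423 CPM. Over the 543 genes that fell at least 2-fold, PBS replicate 3 was the lowest PBS library in 267 (49.2%).

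**Figure D2:**
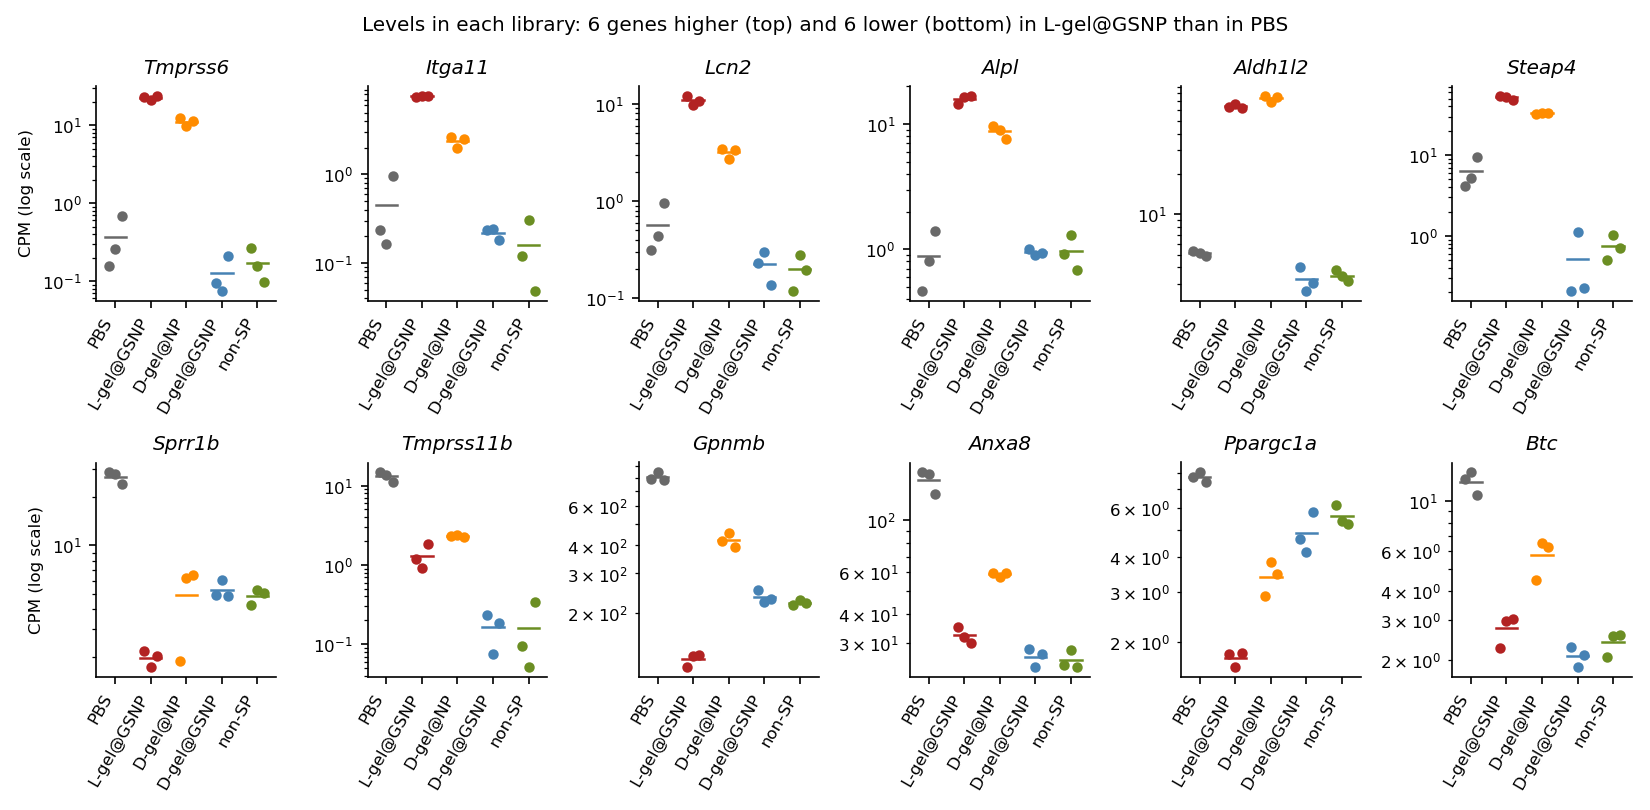
Each panel plots 1 gene; the y axis is CPM on a log scale, dots are the 3 libraries of a group and the bar is their mean. The 12 genes were picked from those named by a rule. That rule asked that the L-gel@GSNP libraries lie all above (top row) or all below (bottom row) the PBS libraries. In D-gel@NP 11 of the 12 group means lie between those of PBS and L-gel@GSNP. This count holds for the genes shown only: Atp2a3, a large rise that is not shown, had a higher mean in D-gel@NP than in L-gel@GSNP.

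Cholesterol synthesis genes fell nearly throughout: 23 of 24 tested members were lower (24.1% of all tested genes), none was higher, and 13 were at least 2-fold lower, with a median log2 difference of -1.04 against 0.00 over all tested genes. Fdps, which makes farnesyl diphosphate, was at 152, 140.2 and 146 CPM with PBS and 62.0, 69.2 and 62.6 CPM in the gel, a log2 difference of -1.18 (-1.31 to -1.05). Msmo1, a sterol demethylase, fell from 170.5 ± 9.79 to 73.0 ± 6.16 CPM. Ebp, a late sterol isomerase, had 66.3, 61.2 and 52.8 CPM with PBS and 21.6, 22.9 and 20.3 CPM in the gel. By contrast, Srebf2, which encodes the factor that drives these genes, was at 64.1 ± 10.5 and 67.8 ± 7.99 CPM and was not called. Abcg1, a sterol exporter, fell 3.10-fold, to 6.62 ± 0.746 CPM.

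In fatty acid synthesis 13 of 14 tested members were lower (median log2 difference -0.47). Fasn, the fatty acid synthase, was at 338, 415 and 392 CPM with PBS and 191, 238 and 245 CPM in the gel. Elovl6, which lengthens fatty acids, fell 2.17-fold, Fads2, a desaturase, 2.104-fold, Acly, which makes cytosolic acetyl-CoA, 1.61-fold, and Scd1, which makes oleate, 1.60-fold. The exception was Mlxipl, which encodes ChREBP: it rose from 1.04, 1.30 and 1.01 CPM to 8.01, 8.97 and 7.32 CPM. Direct tests against D-gel@NP called 20 of the 24 cholesterol genes and 9 of the 14 fatty acid genes lower in L-gel@GSNP (11.1% of all genes tested), with median log2 differences of -0.43 and -0.22.

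A sterol response element, written here as TCACNCCAC and read on both strands, was searched in the RefSeq windows (GRCm38.p6) from 250 bases before to 50 after a gene's start. It lay in the window of Hmgcs1 alone among the 16 cholesterol genes with a window, and in 1.44% of all 27025 genes with one. The stretch of Hmgcs1, an early enzyme of the pathway (152 CPM with PBS, 121 CPM in the gel), lies on the plus strand at chr13:119690199-119690237 and is shown with the match in capitals:
Hmgcs1: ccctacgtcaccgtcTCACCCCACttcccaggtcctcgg

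Txnip and Arrdc4, 2 related arrestin-like proteins that restrain glucose uptake, were looked at after their values were seen. Txnip was at 165, 157 and 179.7 CPM with PBS, 1161, 1035 and 1193 CPM in the gel and 611, 467 and 574 CPM in D-gel@NP. Arrdc4 was at 12.3, 10.8 and 12.5 CPM with PBS and 85.3, 79.8 and 84.7 CPM in the gel, a log2 difference of 2.81 (2.66 to 2.97). Both also exceeded D-gel@NP, by log2 differences of 1.04 and 0.87 (adjusted p = 3.98e-09 and 2.05e-08, edgeR's quasi-likelihood test). The carbohydrate response element that ChREBP binds, searched on both strands as a pair of CACGNG runs 5 bases apart, was found in the windows of 15 of the 27025 genes (0.0555%), Txnip among them and none of 11 fatty acid genes with a window. It is shown in capitals on the plus strand at chr3:96557857-96557903 (GRCm38.p6, RefSeq):
Txnip: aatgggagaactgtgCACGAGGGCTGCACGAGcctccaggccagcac

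Lysosome and autophagy genes were mostly lower, 20 of 28 tested members (24.1% of all tested genes) against 3 higher (21.5%). The median log2 difference was -0.36, and the summed level was 7100.2 to 7615.2 CPM with PBS and 4911.0 to 5034.4 CPM in the gel. Lamp1, the main lysosomal membrane glycoprotein, was at 862, 857 and 818 CPM with PBS and 451, 460.0 and 458 CPM in the gel. Gla, the alpha-galactosidase deficient in Fabry disease, had 36.7, 32.2 and 29.3 CPM with PBS and 11.2, 9.96 and 10.6 CPM in the gel, and Hexa, a hexosaminidase subunit, fell 2.11-fold. Ctsd, an aspartic protease, fell from 427 ± 35.2 to 281 ± 6.91 CPM and Ctsa, a lysosomal carboxypeptidase, from 423 ± 21.0 to 242 ± 6.78 CPM. Sqstm1, an autophagy receptor, was at 639 ± 17.2 and 595 ± 2.26 CPM and was not called by edgeR, but was called lower by DESeq2 (log2 difference -0.10). Flcn, a regulator of TFEB chosen after its values were seen, was at 80.9, 84.8 and 86.5 CPM with PBS and 27.0, 27.3 and 27.4 CPM in the gel.

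Macrophage markers, which share lysosome genes, had no common direction. Among 9 tested markers 3 were lower (24.1% of all tested genes), 1 was higher (21.5%) and 5 were not called. At least 2-fold changes were 2 falls and 1 rise, and the median log2 difference was 0.01. The summed level of the markers was 69.4 to 76.4 CPM with PBS and 40.2 to 46.4 CPM in the gel. Cd68, itself lysosomal, made up most of that difference (42.4 ± 5.79 against 15.5 ± 4.20 CPM), Csf1r was at 24.6 ± 1.98 and 19.2 ± 1.04 CPM (log2 difference -0.36, adjusted p = 0.0321, edgeR's quasi-likelihood test, and not below 0.05 without 5 of the 6 libraries in turn), and the defining marker Tyrobp was at 0 in both groups. The part of such cells in the fall of the lysosome genes was not tested. The CLEAR element of TFEB targets, TCACGTG on both strands, was found in the windows of 7 of the 22 list members with a window and of 4.29% of all genes with one; its letters also hold ACGTG. Lamp1 and Gla are shown because both fell and both windows hold several copies, on the plus strand at chr8:13159084-13159160 and on the minus strand at chrX:134601178-134601248 (GRCm38.p6, RefSeq), with the matches in capitals:
Lamp1: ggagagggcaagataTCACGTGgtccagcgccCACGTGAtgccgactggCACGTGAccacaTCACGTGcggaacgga
Gla: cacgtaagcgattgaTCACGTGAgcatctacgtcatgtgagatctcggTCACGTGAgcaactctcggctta

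Genes of the integrated stress response were mostly higher: 18 of 26 tested members rose (21.5% of all tested genes), 4 fell (2 without PBS replicate 1) and 10 rose at least 2-fold (median log2 difference 0.72). Atf4 itself went from 179, 180.5 and 183 CPM to 288, 287 and 269 CPM. Asns, asparagine synthetase, stood at 81.9, 75.1 and 78.4 CPM with PBS and 222, 213 and 197 CPM in the gel (2.68-fold; adjusted p = 3.39e-14, edgeR's quasi-likelihood test). Trib3, a pseudokinase induced by ATF4, went from 6.22, 8.09 and 10.7 CPM to 68.1, 62.0 and 59.5 CPM. The L-gel@GSNP libraries lay all above the PBS libraries in these 3 genes, as in 25.5% of all tested genes.

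Aldh18a1, the first enzyme of proline synthesis, was at 21.7 ± 2.56 CPM with PBS and 102 ± 1.75 CPM in the gel. Mthfd2, a mitochondrial folate enzyme, rose 3.44-fold and Psat1, of serine synthesis, 2.04-fold. Aldh1l2, the mitochondrial enzyme that oxidises formyl-tetrahydrofolate, was at 5.34, 5.16 and 4.83 CPM with PBS and 63.9, 66.5 and 62.3 CPM in the gel, a log2 difference of 3.65 (3.44 to 3.86). Cth, which makes cysteine from cystathionine, rose 8.56-fold, to 21.8 ± 2.56 CPM.

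Genes tied to the endoplasmic reticulum were mostly lower or not called. Ddit3, which encodes CHOP, fell from 31.3 ± 2.41 to 25.3 ± 3.07 CPM (adjusted p = 0.0100, edgeR's quasi-likelihood test). That call was lost without L-gel@GSNP replicate 2 (log2 difference -0.21) or PBS replicate 1 (-0.23), and when thinned to the shallowest library (-0.24). Eif2ak3, which encodes the kinase PERK, fell from 45.1 ± 1.37 to 28.9 ± 0.632 CPM. Hspa5, the chaperone BiP, was at 825, 774 and 742 CPM with PBS and 816, 737 and 799.7 CPM in the gel and was not called. Of 23 tested endoplasmic reticulum chaperone and Xbp1 target genes 15 were lower and 3 higher (median -0.22), among them Canx, the lectin chaperone calnexin, which fell 1.49-fold, and Dnajb9, a cochaperone of BiP, which fell 1.70-fold. Xbp1 rose 1.15-fold.

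Amino acid transporters split. Slc7a5, the large neutral amino acid carrier, went from 21.3, 24.8 and 31.0 CPM to 74.5, 73.5 and 75.9 CPM, Slc38a4 from 230.2 ± 44.1 to 691 ± 119 CPM, and Slc6a9, a glycine carrier, rose 2.18-fold. Slc7a11, the cystine importer that is also an ATF4 target, fell from 119 ± 2.53 to 97.4 ± 9.21 CPM, and Slc1a2, a glutamate carrier, fell 2.57-fold. In all 5 of 16 tested transporters were higher and 7 lower. Of 23 tested aminoacyl-tRNA synthetases 13 were higher and 6 lower (median 0.38), with Gars at 573 ± 28.9 and 881 ± 49.8 CPM, Lars 1.64-fold higher and Hars 1.42-fold lower.

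The stress response was not higher in L-gel@GSNP than in D-gel@NP. In D-gel@NP, Trib3 was at 74.0 ± 15.8, Asns at 294 ± 19.6 and Mthfd2 at 208 ± 17.6 CPM. Tested directly, 14 of the 26 genes were lower in L-gel@GSNP than in D-gel@NP (11.1% of all genes tested) and 1 was higher, with Asns at a log2 difference of -0.48 (-0.60 to -0.37). Trib3 did not pass that test, at -0.22 (-0.51 to 0.07).

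The C/EBP-ATF response element through which ATF4 acts, written as TGATGNAA, read on both strands, was found in the windows of 8 of the 27 stress response genes and of 4.51% of all genes with a window. Asns and Chac1, a glutathione-degrading enzyme that rose from 2.34 ± 0.456 to 12.2 ± 0.943 CPM, are shown because both rose and both hold it, on the minus strand at chr6:7693210-7693247 and the plus strand at chr2:119351034-119351071 (GRCm38.p6, RefSeq), with the match in capitals:
Asns: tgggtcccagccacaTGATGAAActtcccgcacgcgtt
Chac1: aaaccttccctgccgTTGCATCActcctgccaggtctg

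Hypoxia response and glycolysis genes were mostly higher, 19 of 28 tested members (21.5% of all tested genes) against 2 lower (24.1%). The median log2 difference was 0.63, and 8 members rose at least 2-fold. Without L-gel@GSNP replicate 2 none was lower. Bnip3, a receptor for the removal of mitochondria, was at 18.4, 17.8 and 17.4 CPM with PBS and 119.6, 74.6 and 154 CPM in the gel. Vegfa, the main angiogenic growth factor, was at 61.7, 70.7 and 70.4 CPM with PBS and 226, 178 and 313 CPM in the gel. Pdk1, a kinase that inhibits pyruvate dehydrogenase, stood at 38.8, 39.7 and 41.5 CPM with PBS and 116, 94.2 and 118 CPM in the gel. The gel libraries lay above the PBS libraries in all 3 genes, as in 25.5% of all tested genes, but spread widely. L-gel@GSNP replicate 2 was the lowest gel library in 17 of the 19 members that rose.

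The glycolytic enzyme Pgk1 rose from 611 ± 25.7 to 1195 ± 193 CPM, Ndrg1, a stress-induced protein, from 28.4 ± 5.04 to 82.0 ± 19.7 CPM, and Ldha, lactate dehydrogenase, by a log2 difference of 0.21 (0.10 to 0.32). Egln3, a prolyl hydroxylase that marks HIF for destruction, rose 2.11-fold and Slc2a1, a glucose carrier, 1.51-fold. Gapdh was at 355, 58.6 and 229 CPM with PBS and 441, 416 and 299 CPM in the gel, overlapping, and was called only in the fit without a filter; it has many processed copies among which reads may be split.

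These genes also differed between the gels. Bnip3 was at 31.7, 19.1 and 26.3 CPM in D-gel@NP, a log2 difference of 2.20 (1.76 to 2.65) for L-gel@GSNP over D-gel@NP, and Pgk1 at 605 ± 35.8 CPM, a difference of 0.98 (0.82 to 1.14). Tested directly, 21 of 28 genes were higher in L-gel@GSNP than in D-gel@NP (8.33% of all genes tested) and 1 was lower. For Vegfa the D-gel@NP libraries, at 153, 129 and 128 CPM, lay between the PBS and the L-gel@GSNP libraries. In D-gel@GSNP, Bnip3 was at 10.6 ± 3.38 and Vegfa at 30.9 ± 4.94 CPM.

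The core of the hypoxia response element, ACGTG on both strands, is short and lay in the windows of 21.8% of all genes with one, and of 19 of the 27 list members with a window. Bnip3, Pgk1 and Vegfa are shown as the members described above, on the minus strand at chr7:138909594-138909629, the plus strand at chrX:106186935-106186988 and the minus strand at chr17:46025355-46025389 (GRCm38.p6, RefSeq), with the matches in capitals:
Bnip3: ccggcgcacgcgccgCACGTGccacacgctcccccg
Pgk1: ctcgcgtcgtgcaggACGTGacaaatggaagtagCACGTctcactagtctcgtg
Vegfa: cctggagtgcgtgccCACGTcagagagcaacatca

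**Figure D3:**
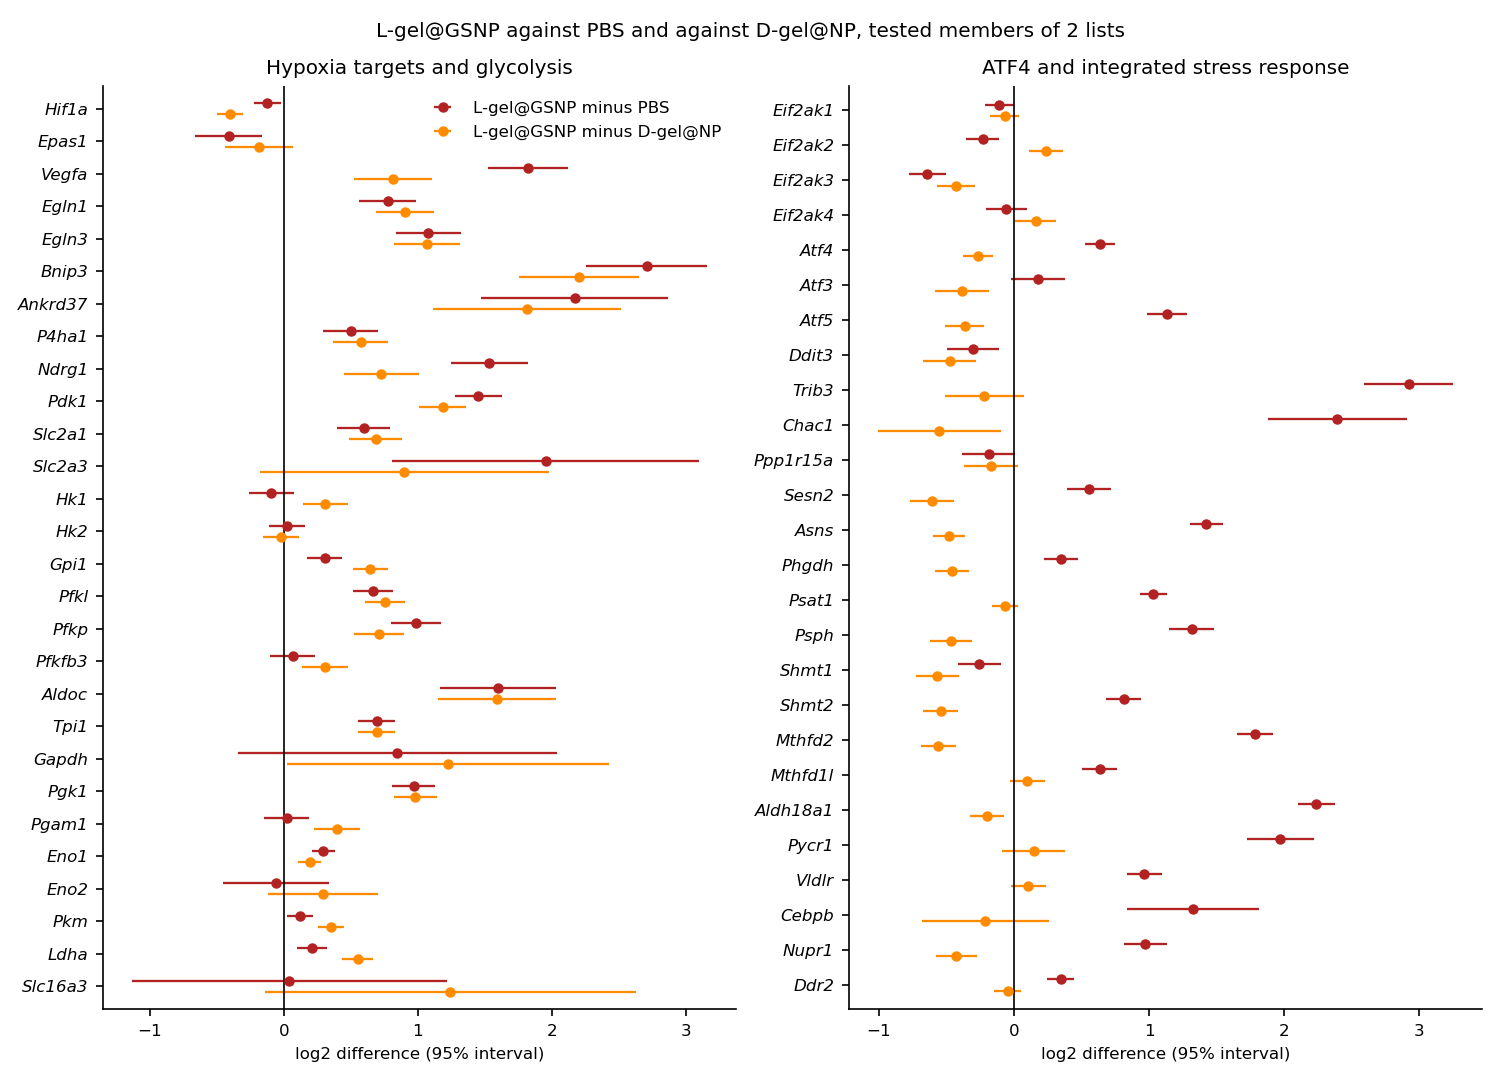
Dots are log2 differences with 95% intervals for tested genes of the hypoxia list (left) and the stress response list (right); red is L-gel@GSNP minus PBS and orange L-gel@GSNP minus D-gel@NP. On the left most genes lie right of 0 in both colours, whereas on the right genes such as Asns lie right of 0 in red (1.42) and left of it in orange (-0.48).

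Cytosolic ribosomal protein genes rose almost throughout, 28 of 30 tested members with none lower, by small amounts (median log2 difference 0.35, none reaching 2-fold). Rpl3 was at 597, 559.7 and 539.7 CPM with PBS and 871, 810.0 and 766 CPM in the gel, and Rps6 at 629 ± 35.3 and 785 ± 48.0 CPM. Such genes have many processed copies, among which reads may be split. Genes that build ribosomes went the other way, 19 of 27 lower and 4 higher (median -0.23). Nolc1, a nucleolar chaperone, fell 1.46-fold and Rrp12, of ribosome export, 1.61-fold.

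Respiratory chain genes of the nucleus fell in 29 of 31 tested members (median log2 difference -0.35, none by 2-fold). Cox5a, a subunit of cytochrome oxidase, was at 37.7, 37.9 and 36.1 CPM with PBS and 22.0, 21.9 and 21.0 CPM in the gel, and Cycs, cytochrome c, fell from 203 ± 12.5 to 134 ± 3.58 CPM. Of 13 mitochondrially encoded protein genes 7 were lower and none higher: mt-Co1 went from 24772 ± 2071 to 17545 ± 746 CPM. With limma on log2(FPKM + 1) and no filter 4 were lower, and mt-Co1 was not called. The share of all counts on mitochondrially encoded genes was 5.97% ± 0.343 with PBS and 4.50% ± 0.192 in the gel (SD, n = 3), and its part in these falls was not tested directly. Over 12 processing alternatives, a fit without the mitochondrially encoded genes among them, 26 to 29 of the 31 nuclear members were lower. Mitochondrial ribosomal protein genes were lower in 13 of 22 tested members, and Mrps7 fell 1.66-fold.

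Protein folding and turnover genes were also mostly lower. Of 19 tested cytosolic and mitochondrial heat shock genes 15 were lower (median -0.34), with Hsph1, a cochaperone of HSP70, at 252, 264 and 244 CPM with PBS and 128, 123 and 141 CPM in the gel, and Hspd1, the mitochondrial chaperonin, 1.38-fold lower. Hspa9, the mitochondrial HSP70, was an exception, rising from 767 ± 4.26 to 1164 ± 23.5 CPM. Proteasome subunit genes were lower in 20 of 28 tested members (median -0.22), with Psmc5, an ATPase of the proteasome cap, 1.46-fold lower.

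**Figure D4:**
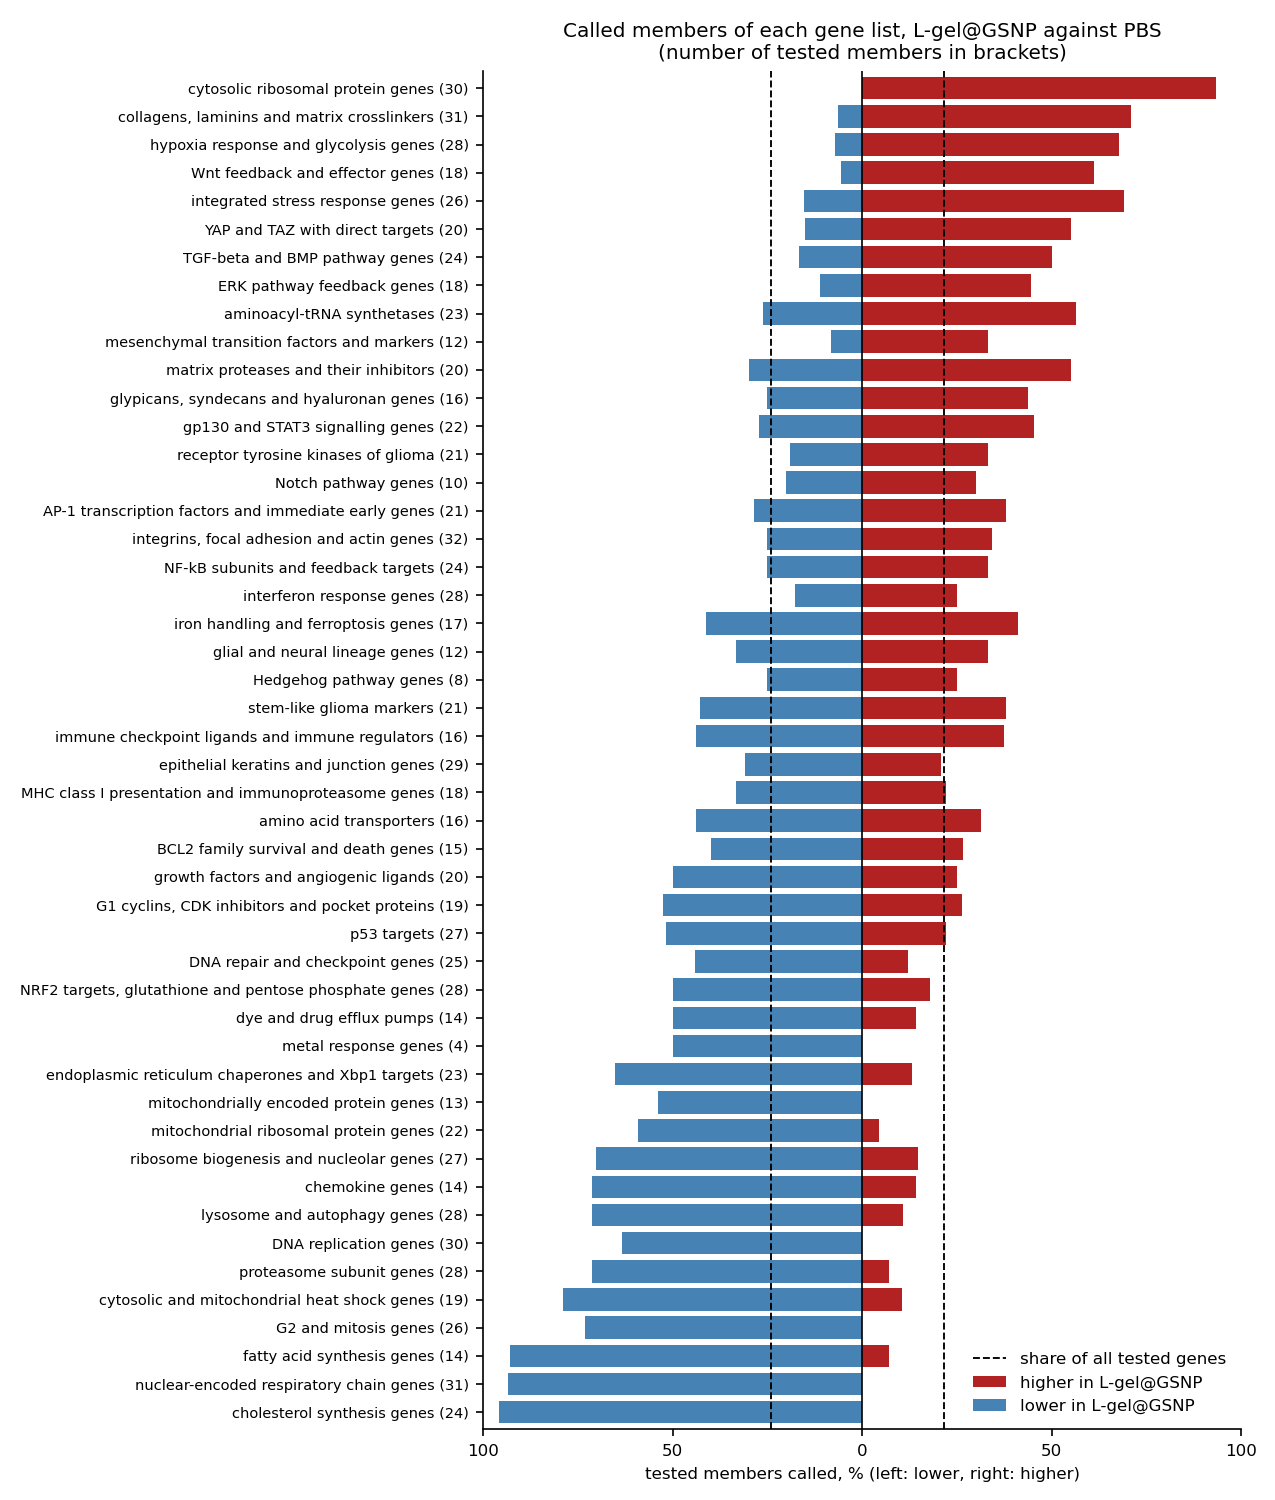
For each of 48 gene lists, bars give the percentage of its tested members called higher (right, red) or lower (left, blue) in L-gel@GSNP than in PBS; dashed lines mark 21.5% and 24.1%, the shares over all tested genes. Ribosomal protein, matrix, hypoxia, Wnt and stress response genes stand at the top, and mitosis, fatty acid, respiratory chain and cholesterol genes at the bottom.

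Genes of the dividing cell were lower by small amounts. Among DNA replication genes 19 of 30 were lower and none higher (median -0.27), and among mitosis genes 19 of 26 were lower and none higher (median -0.25). Rrm2, which supplies deoxynucleotides, was at 267, 274 and 276 CPM with PBS and 188, 196 and 151 CPM in the gel. Plk1, the mitotic kinase, was at 44.8, 51.8 and 53.2 CPM with PBS and 31.3, 38.3 and 33.2 CPM in the gel, and Fen1, a flap endonuclease, fell 2.16-fold. Mcm2, a subunit of the replicative helicase, was at 205 ± 2.91 and 214 ± 19.2 CPM and was not called with all libraries, but was higher without L-gel@GSNP replicate 3 (log2 difference 0.15). L-gel@GSNP replicate 3 was the lowest gel library for Rrm2, and without it 2 replication genes and 1 mitosis gene were called higher.

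Regulators around the cell cycle were mixed. Cdkn1b, the CDK inhibitor p27, rose from 69.9 ± 2.04 to 106 ± 6.76 CPM and Cdkn2b, p15, 1.49-fold, while Ccne1, cyclin E1, fell 1.64-fold; over the G1 regulators 5 of 19 were higher and 10 lower. Of 27 tested p53 targets 14 were lower and 6 higher; with upper-quartile scaling the lower count was 9. Mdm2, which degrades p53, fell from 284 ± 8.01 to 196 ± 6.23 CPM, and Perp, a desmosomal p53 target, 1.95-fold. Cdkn1a, the CDK inhibitor p21, fell from 341 ± 4.68 to 302 ± 23.6 CPM, a call lost without L-gel@GSNP replicate 1 (log2 difference -0.14) or 2 (-0.13). The Cdkn1a call was also lost with upper-quartile scaling (-0.11) and with limma on log2(FPKM + 1) and no filter (-0.16). Sesn1, a stress-induced protein that restrains mTORC1, rose from 20.6, 19.2 and 22.2 CPM to 44.4, 48.8 and 40.4 CPM. In DNA repair 11 of 25 genes were lower and 3 higher, with Atm, the double-strand break kinase, 1.80-fold lower and Brca2 1.41-fold higher.

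In the BCL2 family 4 of 15 tested genes were higher and 6 lower, a balance that turned with upper-quartile scaling. Bmf, a death-promoting BH3 protein, was at 1.61, 1.25 and 1.75 CPM with PBS and 9.96, 9.53 and 12.6 CPM in the gel. Bcl2l11, which encodes BIM of the same class, rose from 69.8 ± 3.51 to 133 ± 9.83 CPM, and Bok fell 2.15-fold. The survival genes Bcl2 and Mcl1 were not called, at 10.6 ± 1.11 and 11.4 ± 0.917 CPM and at 361 ± 6.82 and 375 ± 8.87 CPM, except that Mcl1 was called higher with upper-quartile scaling (log2 difference 0.12).

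Stem-like glioma markers showed no common direction, with 8 of 21 tested members higher and 9 lower. The only member at least 2-fold higher was Aldh1l2, the folate enzyme described above (log2 difference 3.65). The only member at least 2-fold lower was Pdgfra, a growth factor receptor described below (-1.80). Cd44, a hyaluronan receptor, was at 1201, 1161 and 1106 CPM with PBS and 919, 900.0 and 853 CPM in the gel, a log2 difference of -0.38 (-0.47 to -0.29). Aldh1a1, a retinal dehydrogenase used as a stem-cell marker, fell from 1364 ± 64.5 to 1038 ± 25.4 CPM, and Nes, nestin, rose from 1.24 ± 0.530 to 2.07 ± 0.105 CPM. The Nes call was lost without PBS replicate 1 (log2 difference 0.62) or 2 (0.54), and with limma on log2(FPKM + 1) and no filter (0.16). Epcam, an epithelial adhesion protein, fell 1.86-fold. Abcg2 and Abcb1a, which encode pumps that expel Hoechst dye, were not called in the main setting. Abcg2 was at 55.9, 54.7 and 52.4 CPM with PBS and 49.3, 50.2 and 51.5 CPM in the gel, a log2 difference of -0.11 (-0.22 to 0.01). Abcb1a differed by 0.14 (-0.02 to 0.30), or by 0.21 and called with upper-quartile scaling or without L-gel@GSNP replicate 3. Abcc2, an exporter of conjugates, was at 348, 339 and 328 CPM with PBS and 155, 152 and 153 CPM in the gel, and Abcc1 rose 1.43-fold; of 14 tested transporters 2 were higher and 7 lower, and 1 was higher without PBS replicate 2.

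Pdgfra, Egfr and Met, growth factor receptors with known roles in glioma, fell. Pdgfra was at 50.5 ± 0.172 CPM with PBS and 14.4 ± 1.11 CPM in the gel, Egfr at 87.3, 85.2 and 74.1 CPM with PBS and 39.4, 35.4 and 31.6 CPM in the gel, and Met, the receptor of hepatocyte growth factor, at 136 ± 6.94 and 73.4 ± 7.63 CPM. The log2 differences were -1.80, -1.22 and -0.90. Other receptors rose, among them Fgfr1 1.59-fold and Insr, the insulin receptor, 1.54-fold. Over the list 7 of 21 were higher and 4 lower, with 2 at least 2-fold higher and 2 at least 2-fold lower. The log2 differences of the tested members ran from -1.80 to 3.22. Of 20 tested growth factors and angiogenic ligands 5 were higher and 10 lower. The ERK feedback gene Spry1, an inhibitor of receptor signalling, went from 13.6, 16.7 and 21.5 CPM to 42.6, 45.9 and 49.6 CPM, and Dusp4, an ERK phosphatase, fell 1.28-fold; of 18 such genes 8 rose and 2 fell, but without L-gel@GSNP replicate 3 or PBS replicate 1 the count higher was 5.

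Of 22 tested genes of gp130 and STAT3 signalling 10 were higher and 6 lower. Osmr, the oncostatin M receptor, went from 6.02, 6.83 and 6.86 CPM to 20.0, 17.4 and 18.4 CPM, Il6st, which encodes gp130, from 117 ± 10.9 to 181 ± 3.42 CPM, and Stat3 from 80.0 ± 6.80 to 114 ± 10.96 CPM. The feedback gene Socs3 was not called, at 16.4 ± 1.69 and 18.1 ± 1.83 CPM. Among NF-kB genes (8 of 24 higher, 6 lower) the feedback inhibitors Tnfaip3 and Nfkbia rose 1.68-fold and 1.35-fold, while Nfkb2 and Sod2 fell 1.40-fold and 1.504-fold.

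Chemokine genes were mostly lower, 10 of 14 tested members (24.1% of all tested genes) against 2 higher (21.5%), with a median of -0.71. Ccl2, which draws monocytes, was at 92.3, 85.0 and 84.6 CPM with PBS and 42.7, 37.8 and 33.7 CPM in the gel. Cxcl1, which draws neutrophils, went from 119.5 ± 0.931 to 74.3 ± 5.57 CPM, Cxcl5 from 288 ± 12.6 to 190.0 ± 25.4 CPM and Cxcl16 from 55.2 ± 4.14 to 29.0 ± 1.75 CPM. Tested directly against D-gel@NP, 6 of the 14 genes were lower in L-gel@GSNP (11.1% of all genes tested) and 1 was higher (8.33%). The median log2 difference from D-gel@NP was -0.28. Neither Ccl2 nor Cxcl1 passed that test, with log2 differences of -0.19 (-0.35 to -0.03) and -0.15 (-0.29 to 0.00).

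Other immune lists showed no common direction. Of 28 tested interferon response genes 7 were higher and 5 lower, with Irf1, a transcription factor, 1.49-fold higher and Mx1, an antiviral GTPase, 2.00-fold lower. In MHC class I presentation, with 4 of 18 higher and 6 lower, B2m, the light chain, fell from 417 ± 28.0 to 322 ± 16.5 CPM and Tapbp, tapasin, 1.64-fold. Lgals9, an immune regulatory galectin, fell from 237, 232 and 194 CPM to 92.2, 86.3 and 87.3 CPM, and Nectin2, a ligand of the receptor TIGIT, rose 2.12-fold. Cd274, which encodes PD-L1, was at 4.20 ± 0.492 and 5.42 ± 1.06 CPM and was not called in the main setting, but was called higher when thinned to the shallowest library (log2 difference 0.57), with upper-quartile scaling (0.44) and without L-gel@GSNP replicate 2 (0.53). Cd47, a signal against phagocytosis, rose 1.22-fold; over the checkpoint list 6 of 16 were higher and 7 lower.

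Matrix genes were mostly higher: of 31 tested collagen, laminin and crosslinking genes 22 rose (21.5% of all tested genes) and 2 fell (24.1%). The median log2 difference was 0.47. Fn1, fibronectin, was at 1528, 1926 and 2469.7 CPM with PBS and 3262, 3664 and 4204 CPM in the gel. Lama3, a laminin chain of epithelial basement membrane, went from 5.58, 6.65 and 8.55 CPM to 34.3, 35.7 and 41.3 CPM, and Loxl2, a collagen crosslinker, rose 2.77-fold. The fibrillar collagen gene Col1a1 was at 0.571, 0.930 and 3.24 CPM with PBS and 1.78, 2.28 and 5.13 CPM in the gel; its groups overlapped. It was called higher with a log2 difference of 1.05 (adjusted p = 0.0299, edgeR's quasi-likelihood test), a call lost in 9 of the 18 alternatives. These included DESeq2 (0.96), the fit of the 2 groups' libraries alone (1.00), and the fits without L-gel@GSNP replicate 3 (0.39), PBS replicate 1 (0.67) or PBS replicate 2 (0.77), while without PBS replicate 3 the difference was 2.103. Fibroblast markers as a set summed to 1292 to 1366 CPM with PBS and 1318 to 1477 CPM in the gel, nearly all of it from Dcn, decorin. Of 6 tested fibroblast and pericyte markers 3 were higher, each at least 2-fold, and 1 was lower (median log2 difference 1.096), and their part in the rise of the matrix genes was not tested. Dcn was at 1285 ± 40.3 and 1372 ± 81.5 CPM, not called in the main setting of edgeR's quasi-likelihood test but called higher in 7 of the 18 alternatives, among them upper-quartile scaling (log2 difference 0.16) and leaving out L-gel@GSNP replicate 3 (0.15).

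Genes of the cell surface, of matrix remodelling and of adhesion moved in both directions, with 7 of 16 proteoglycan genes, 11 of 20 protease genes and 11 of 32 adhesion genes higher and 4, 6 and 8 lower. Agrn, the heparan sulfate proteoglycan agrin, was at 237 ± 35.2 CPM with PBS and 485 ± 63.1 CPM in the gel, Gpc3, glypican 3, rose 3.78-fold and Cemip, which degrades hyaluronan, fell 2.89-fold. Mmp14, a membrane-bound collagenase, went from 187 ± 18.9 to 300.2 ± 26.3 CPM, Mmp19 rose 4.08-fold and Timp1, an inhibitor of such enzymes, fell 1.53-fold. Vil1, an actin bundler of microvilli, went from 59.5, 56.4 and 63.5 CPM to 179.5, 166 and 161 CPM, while Itgb4, a hemidesmosome integrin, fell from 266 ± 24.5 to 164 ± 8.29 CPM and Itgb1 was not called (1011 ± 34.9 and 1036 ± 40.3 CPM).

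Of 20 tested genes of YAP and TAZ 11 were higher and 3 lower: Ccn2, a matricellular target, went from 96.7, 98.2 and 111 CPM to 144, 124 and 216 CPM, while its relative Ccn1 fell from 59.2, 61.8 and 69.6 CPM to 44.7, 38.0 and 57.5 CPM. The Ccn1 call was lost without L-gel@GSNP replicate 2 (log2 difference -0.30) and with limma on log2(FPKM + 1) and no filter (-0.43). Of 18 Wnt feedback and effector genes 11 were higher and 1 lower (median 0.28), with Axin2, a feedback inhibitor, from 323 ± 23.4 to 385 ± 30.3 CPM and Notum, a Wnt-inactivating enzyme, 1.56-fold higher. Of 24 TGF-beta and BMP genes 12 were higher and 4 lower, with Smad3 1.62-fold higher and Bmp4 1.51-fold lower. Of 8 Hedgehog genes 2 were higher and 2 lower, near the shares over all tested genes (21.5% and 24.1%). Ihh, a Hedgehog ligand, fell from 21.7, 27.9 and 22.96 CPM to 8.07, 9.19 and 8.29 CPM and the Hedgehog target Gli1 from 4.82 ± 0.935 to 2.07 ± 0.404 CPM, whereas the coreceptor Cdon rose from 298 ± 33.5 to 475 ± 27.5 CPM. Of 10 Notch genes 3 were higher and 2 lower: Jag1 and Hes1 fell 1.28-fold and 1.32-fold and Rbpj rose 1.38-fold.

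Immediate early genes were split, 8 of 21 higher and 6 lower, and without L-gel@GSNP replicate 3 or PBS replicate 1 the count higher was 5. Fos fell from 62.3, 67.9 and 65.9 CPM to 39.1, 31.3 and 47.6 CPM, Jun was not called (23.03, 25.5 and 21.8 CPM with PBS, 21.5, 20.4 and 31.2 CPM in the gel), and Klf10, a target of TGF-beta, rose from 124, 116 and 109 CPM to 310.3, 278 and 284 CPM. Krt8 was not called, but was lower without PBS replicate 3 (log2 difference -0.13). Sprr1a, a relative of Sprr1b, fell from 542 ± 41.4 to 237 ± 22.0 CPM and Krt80 1.82-fold, while Tjp1, of tight junctions, rose 1.51-fold; in all 6 of 29 epithelial genes were higher and 9 lower, and 4 of 12 mesenchymal transition genes were higher and 1 lower.

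Iron genes moved in both directions, 7 of 17 higher and 7 lower. Fth1, the ferritin heavy chain, went from 1119.7, 1201 and 1167 CPM to 767, 758 and 789 CPM and Tfrc, the transferrin receptor, from 462 ± 33.0 to 373 ± 30.1 CPM, whereas Slc40a1, the iron exporter ferroportin, rose from 45.9 ± 3.98 to 83.1 ± 2.74 CPM. Of 28 NRF2, glutathione and pentose phosphate genes 14 were lower and 5 higher. Nqo1, a quinone reductase, fell from 47.4 ± 2.43 to 27.1 ± 1.61 CPM, Mt1, a metallothionein, 1.95-fold, whereas Hmox1, heme oxygenase, was not called, with 31.3, 30.0 and 34.1 CPM with PBS and 28.2, 20.3 and 46.4 CPM in the gel. L-gel@GSNP replicate 3 was its highest gel library, and without it Hmox1 was lower (log2 difference -0.39).

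The balance of calls differed with the level of the genes. Of 4768 tested genes with a mean under 1 CPM over all 15 libraries 603 were higher and 263 lower, with a median log2 difference of 0.19. Of the 12729 genes at 1 CPM or more 3158 were higher and 3955 lower, with a median of -0.03, and of the 2435 genes at 100 CPM or more only 15 were higher and 18 lower by at least 2-fold. A gene with a mean under 1 CPM could pass the filter because it was high in 1 group only. The part of this in the balance of the low genes was not tested. With a minimum of 1 CPM in 3 libraries as the filter, 3803 genes were higher and 3765 lower. Per length, the called genes with the highest levels were mt-Co1, at 16134 FPKM with PBS and 11563 FPKM in the gel, then mt-Cytb, mt-Nd1, mt-Nd4 and Eef1a1, the elongation factor gene, which rose from 3516 to 4290.3 FPKM. L-gel@GSNP replicate 3, with 98.1 M counts, was the deepest of the 6 libraries; with all libraries thinned to 16.6 M counts, 3480 genes were higher and 3588 lower.

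Set directly against D-gel@NP, the gel nearest to it, L-gel@GSNP had 1457 genes higher (8.33%) and 1948 lower (11.1%). Of the 15 largest rises over PBS, Lcn2 had the largest log2 difference between these gels, at 12.2, 9.87 and 10.7 CPM in L-gel@GSNP and 3.46, 2.71 and 3.35 CPM in D-gel@NP (log2 difference 1.79, 1.32 to 2.27), while Atp2a3, at 8.69 ± 1.03 and 10.4 ± 1.58 CPM, did not pass. Gpnmb was at 418, 456 and 392 CPM in D-gel@NP, between PBS and L-gel@GSNP. Set against D-gel@GSNP, whose libraries lay beside the non-SP libraries, 5475 genes were higher (31.3%) and 5339 lower (30.5%). Tmprss6 was at 0.125 ± 0.0714 CPM in D-gel@GSNP and Anxa8 at 26.3 ± 2.37 CPM, near the non-SP levels of 0.171 ± 0.0848 and 25.4 ± 2.36 CPM.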

How the data were processed

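RNA-seq counts per gene and the authors' FPKM values (scaled to gene length and library depth) were deposited for 15 libraries of 5 groups; per the submitters' processing notes, fastp 0.22.0, HISAT2 2.1.0, featureCounts, DESeq2 and the build GRCm39 were used, while how strand and multi-mapping reads were treated is not given in the sources used here. The deposited counts sum to 38.5 to 42.7 M in the PBS and 35.0 to 98.1 M in the L-gel@GSNP libraries, and 62.7 to 66.4% of their counts from 1 to 20 are even, so single counts may not be single fragments. The table gives gene IDs, of which 32434 of 34259 were paired with symbols from GENCODE vM21, and promoter windows are from RefSeq.

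Genes with enough counts (filterByExpr by group) were fitted with edgeR 4.0.16 (TMM factors, quasi-likelihood test) over all 15 libraries with group means, and p-values were adjusted over all 17497 tested genes by the Benjamini-Hochberg method. On simulated counts 79% of 1.5-fold and 88% of 2-fold changes were called, with 11 of 17297 unchanged genes. The changed genes were 100 for each fold, all drawn from genes with a mean of 1 CPM or more. The simulation therefore does not cover lower genes, nor data in which as many as 45.6% of genes are called. Alternatives were other scalings and filters, DESeq2 1.42.0, limma 3.58.1 on log2(FPKM + 1) or log2(FPKM + 0.1), thinning, a replicate block and leaving out each library.

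The comparison, the gene lists and the tests were chosen with earlier results of these data known. Named genes are the 15 largest rises and falls without overlap whose higher group averaged 5 CPM or more, key members of each list, up to 5 called members of each list with the lowest adjusted p, and the 5 called genes of highest FPKM; the text gives some of them. Outside this rule, and chosen after their values were seen, are Txnip, Arrdc4, Flcn, Mlxipl, Srebf2, Hmgcs1, Chac1, Eif2ak3, Egln3, Slc2a1 and Gapdh, and the cell type markers Cd68, Csf1r and Dcn. Some genes named by the rule are not reported here.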

Additional observations from a re-analysis of the deposited data

How the results depend on the processing

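Over the 18 alternatives, the counts of genes higher and lower than PBS stayed within 1.5 times their main values: 3480 to 4560 higher and 3421 to 4211 lower by processing, and 3228 to 3580 higher and 3697 to 4017 lower when 1 library was left out. The count of genes differing from D-gel@NP ran from 2540 to 3681 and that from D-gel@GSNP from 9650 to 10958. Counts of changes of at least 2-fold depended on the scale: 179 higher and 106 lower on log2(FPKM + 1), 719 and 334 with a minimum of 1 CPM, and 1046 and 543 in edgeR's quasi-likelihood test. The fold of low genes shrank likewise with a pseudocount of 1, from 5.95 to 2.83 (log2) for Tmprss6. Hmox1, not called in the main setting, was called lower (-0.39) without L-gel@GSNP replicate 3; its range with 1 library left out was -0.39 to 0.25, and some genes that were called in no setting changed sign. Same-numbered PBS and L-gel@GSNP libraries did not deviate together (correlations 0.04, -0.02 and 0.03), and 2 of the 3 gel libraries correlated best with the PBS library of their own number; with a replicate block 3726 genes were higher and 4206 lower. Antisense and overlapping genes cannot be separated, since the strand setting is not given in the sources used here.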
